A study of Homo sapiens with 12 samples.

Results

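The genes described here encode the machinery that copies chromosomal DNA and the enzymes that supply its building blocks. They were 37 genes given as a list by name, and all 37 were found among 13091 rows named by a gene symbol. They comprised the replicative helicase, the factors that load and fire replication origins, the polymerases, the sliding clamp and its loader, single-strand binding proteins, flap processing and ligation enzymes, and enzymes of deoxynucleotide supply. Their levels were measured by RNA sequencing in AGS and MKN74, both established human gastric cancer cell lines. Each line had 1 control library and 1 library of cells that overexpressed ONECUT2, a transcription factor of the CUT homeodomain family. The sources used here do not give how ONECUT2 was introduced, the control construct or the time of harvest.

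Before S phase, the origin recognition complex together with CDC6 and CDT1 loads the MCM2 to MCM7 helicase onto DNA. CDC45, the GINS complex and MCM10 then turn the loaded helicase into an active one, and DNA polymerases alpha, delta and epsilon copy both strands while the PCNA clamp, placed by replication factor C, keeps polymerases on their template. Ribonucleotide reductase, thymidylate synthase, thymidine kinase and dUTPase keep the deoxynucleotide pools balanced. Many of these genes are transcribed around the entry into S phase under E2F transcription factors. In a whole culture, a smaller share of cells in S phase and less RNA per cell cannot be told apart.

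Levels are in CPM, the usual depth-scaled unit of read counts, with the library sizes that the authors used. Changes are log2(CPM + 1) in the overexpression library minus that in the control library of the same line. At least 20% lower or 25% higher on the scale of CPM + 1 is the smaller size counted, and 1.5-fold the larger. Between 36097456 and 38110453 reads were recovered per library, and a member of the list had at least 458 reads in every library. With 1 library per group a change within a line has no replicate check and describes these libraries. Its 95% interval, given on the ratio of CPM values, covers counting error alone, as reads that carry no molecular identifier may be copies of 1 molecule. ONECUT2 itself was at 4.39 and 18.3 CPM in the control and overexpression libraries of AGS and at 5.14 and 57.6 CPM in those of MKN74, so both overexpression libraries matched their labels. Of 8 epithelial markers 8 had a row, with a summed level of 5664 to 5950 CPM in the AGS libraries and 9079 to 14193 CPM in the MKN74 libraries. KRT7 was lowest, at 0.526 to 2.82 CPM, and CDH1 was at 7.63 and 8.74 CPM in AGS. Of 9 markers of immune, fibroblast and endothelial cells 2 had a row, CD68 and COL1A1, with a summed level of 15.2 to 29.6 CPM.

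Start regions of the genes were read from RefSeq (GRCh38.p14) to show the promoter letters that members share. At least 1 window of 250 bases before and 50 bases after an annotated start was given for 33 of the 37 genes, 44 windows in all. The motifs searched on both strands were the E2F motifs TTTCCCGC, TTTGGCGC, TTTCGCGC and TTTGCCGC, the CCAAT box, and ATCAAT and ATCGAT, which resemble the core of sites bound by ONECUT proteins. An E2F motif was found in 18 of the 44 windows (40.9%), against 3.30% of 34943 windows of the same length in the table. CCAAT was found in 25 windows (56.8%), against 34.6%, and an ONECUT motif in 3 windows (6.82%), against 6.97%. Over the 14170 windows of genes in the expression table the shares were 4.87% for E2F, 34.4% for CCAAT and 4.14% for ONECUT. ATCGAT reads the same on both strands and was counted once per window. A match describes the letters and is not a binding site, and a window without a match is not shown to lack one. MCM4, MCM5, GINS4 and RPA2 had no window in the table.

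The windows below belong to TYMS, the member with the largest decrease in AGS among those with an E2F motif, to PCNA, the member with the largest increase in MKN74, and to ORC1 and GINS3, which hold an ONECUT motif. Capitals mark the motifs, sequences run 5′ to 3′ in the direction of the gene, and TYMS lies at chr18:657403-657702 (plus strand), PCNA at chr20:5126573-5126872 (minus), ORC1 at chr1:52404374-52404673 (minus) and GINS3 at chr16:58392221-58392520 (plus).
TYMS: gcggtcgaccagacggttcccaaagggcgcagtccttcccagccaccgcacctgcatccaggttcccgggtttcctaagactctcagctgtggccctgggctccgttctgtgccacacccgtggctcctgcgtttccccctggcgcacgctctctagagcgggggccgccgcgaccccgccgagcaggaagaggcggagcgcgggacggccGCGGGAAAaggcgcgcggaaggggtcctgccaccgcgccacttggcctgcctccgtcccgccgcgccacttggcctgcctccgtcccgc
PCNA: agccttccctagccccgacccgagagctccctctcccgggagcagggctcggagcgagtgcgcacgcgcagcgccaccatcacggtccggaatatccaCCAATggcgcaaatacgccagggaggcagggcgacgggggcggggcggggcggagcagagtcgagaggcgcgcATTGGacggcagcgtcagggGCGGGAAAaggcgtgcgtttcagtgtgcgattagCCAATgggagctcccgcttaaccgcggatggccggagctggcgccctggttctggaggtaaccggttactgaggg
ORC1: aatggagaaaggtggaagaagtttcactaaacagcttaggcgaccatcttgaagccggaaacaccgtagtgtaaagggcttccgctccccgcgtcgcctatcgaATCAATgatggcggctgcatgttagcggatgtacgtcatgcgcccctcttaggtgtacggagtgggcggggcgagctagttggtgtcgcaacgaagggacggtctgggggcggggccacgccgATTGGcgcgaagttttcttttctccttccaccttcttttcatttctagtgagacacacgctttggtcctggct
GINS3: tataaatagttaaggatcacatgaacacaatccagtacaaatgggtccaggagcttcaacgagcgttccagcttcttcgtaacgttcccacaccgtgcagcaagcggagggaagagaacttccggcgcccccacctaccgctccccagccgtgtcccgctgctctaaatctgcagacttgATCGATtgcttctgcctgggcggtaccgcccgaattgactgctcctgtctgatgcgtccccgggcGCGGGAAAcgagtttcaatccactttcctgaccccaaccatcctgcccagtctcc
The TYMS window holds 1 E2F motif on the opposite strand, starting 39 bases before the annotated start. PCNA holds 1 E2F motif 59 bases before the start, between CCAAT boxes. In ORC1 the ONECUT motif lies 146 bases and in GINS3 70 bases before the start.

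In AGS most of the replication genes were lower in the overexpression library than in the control. 28 of the 37 were below the control by any amount, against 50.3% of the 11675 genes averaging 1 CPM or more in AGS. At least 20% lower were 20 of the 37 and 0 were at least 25% higher, where 20.1% of all genes were that much lower and 23% that much higher. At least 1.5-fold lower were 4 genes, RRM2, ORC1, TYMS and MCM10, or 10.8%, against 5.73% of all genes, and 0 were at least 1.5-fold higher, against 11.2%. After shifting the libraries to a common median 7 genes were at least 1.5-fold lower. The members' median change in AGS was -0.35 and their range -0.81 to 0.21, while the median over all genes was -0.0034.

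In MKN74 the changes of the list were smaller. 25 of the 37 genes were below the control by any amount, against 53.2% of all 11914 genes. This count was 27 with a common median, 21 after quantile normalization and 22 with library totals of the listed rows. At least 1.5-fold lower or higher were 0 genes, against 4.46% and 6.61% of all genes. At the smaller size, 4 were lower (RFC3, CDC45, POLE and GINS4) and 1 was higher (PCNA), or 10.8% and 2.70%, against 13.2% and 14.4% of all genes. The count of 4 was 2 after quantile normalization and with library totals of the listed rows. The median change in MKN74 was -0.10, between -0.46 and 0.44, beside -0.020 over all genes.

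**Figure D1:**
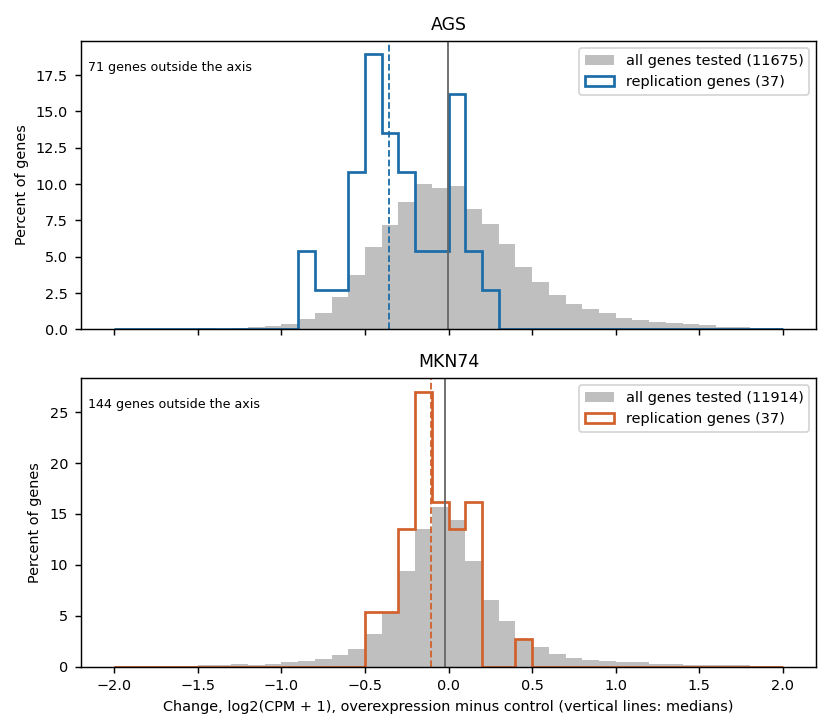
Change of log2(CPM + 1), overexpression minus control (x axis), against the percent of genes (y axis) in AGS (top) and MKN74 (bottom), with all genes tested in grey, the 37 replication genes as an outline and medians as vertical lines; genes beyond the axis are not drawn. The members' median lies at -0.35 in AGS and at -0.10 in MKN74, beside -0.0034 and -0.020 for all genes.

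The replicative helicase is a ring of MCM2 to MCM7. All 6 subunits were lower in AGS overexpression than in the AGS control, against 50.3% of all genes. Their changes lay between -0.54 and -0.17, and 4 of the 6 were at least 20% lower, against 20.1% of all genes. MCM4 was at 208 CPM in the AGS control and 143 in AGS overexpression, and at 340.4 and 317 in MKN74. MCM7 went from 260.3 to 195 CPM in AGS and from 277 to 291 in MKN74. Both MKN74 libraries were above both AGS libraries for each of these subunits. The ratio of overexpression to control was 0.685 (interval 0.663 to 0.708) for MCM4 and 0.751 (0.729 to 0.772) for MCM7 in AGS. MCM2 went from 156 to 120.5 CPM in AGS and from 228 to 205 in MKN74, and MCM6 from 167 to 128 and from 275 to 269. For MCM2 and MCM6 the gap between the AGS libraries was the wider one. MCM5 was at 113 and 95.8 CPM in AGS and at 203 and 179.6 in MKN74, and MCM3 at 205 and 182 and at 272 and 268. MCM3 and MCM5 were the subunits with the smallest changes in AGS, -0.17 and -0.23. In MKN74, 5 of the 6 subunits were below the control, against 53.2% of all genes, by changes between -0.18 and -0.021. But this count was 2 after quantile normalization and 3 with library totals of the listed rows. Reads of MCM7 may include some of AP4M1, which overlaps it and had changes of -0.36 and -0.068 in AGS and MKN74.

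Origin loading genes split in AGS. ORC1, the largest subunit of the origin recognition complex, was at 33.5 and 18.8 CPM in control and overexpression of AGS and at 42.3 and 40.4 CPM in those of MKN74. The AGS overexpression library stood apart as the low one. Its ratio was 0.561 (0.514 to 0.612) in AGS and 0.953 (0.893 to 1.02) in MKN74. PRPF38A, a splicing factor gene that overlaps ORC1, had changes of -0.64 and -0.093 in AGS and MKN74, beside -0.80 and -0.067 for ORC1, and its part in the ORC1 value was not tested. CDC6, the ATPase that helps load the helicase, went from 109 to 84.7 CPM in AGS and was at 127 and 128 CPM in MKN74. CDT1, its loading partner, was at 40.4 and 40.7 CPM in AGS and at 28.2 and 31.6 CPM in MKN74, and ORC6, the smallest origin recognition subunit, at 24.3 and 26.2 and at 41.1 and 43.3 CPM. These last genes were as high or slightly higher in the overexpression libraries, with ratios of 1.01 (0.941 to 1.08) for CDT1 and 1.08 (0.987 to 1.17) for ORC6 in AGS.

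Among the genes that fire origins, MCM10, which helps activate the helicase, was at 61.2 CPM in the AGS control and 37.5 in AGS overexpression, a ratio of 0.612 (0.575 to 0.652). In MKN74 it was at 78.8 and 78.4 CPM. The GINS complex, a helicase cofactor, was lower in AGS for each subunit, against 50.3% of all genes. The changes were -0.54 (GINS1), -0.33 (GINS2), -0.46 (GINS3) and -0.28 (GINS4). In MKN74 the subunits split, at 0.15, 0.12, -0.14 and -0.34 in the same order. GINS1 was at 136 and 93.4 CPM in AGS and at 95.8 and 107 CPM in MKN74. GINS4 was at 25.2 and 20.6 CPM in AGS and at 45.7 and 36.0 CPM in MKN74, lower with overexpression in both. CDC45, the helicase cofactor that binds with GINS, was at 29.5 and 30.7 CPM in AGS and 92.0 and 66.8 CPM in MKN74. Its ratio in AGS was 1.04 (0.961 to 1.12). Its ratio in MKN74 was 0.726 (0.693 to 0.762), one of the largest decreases of the list there.

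**Figure D2:**
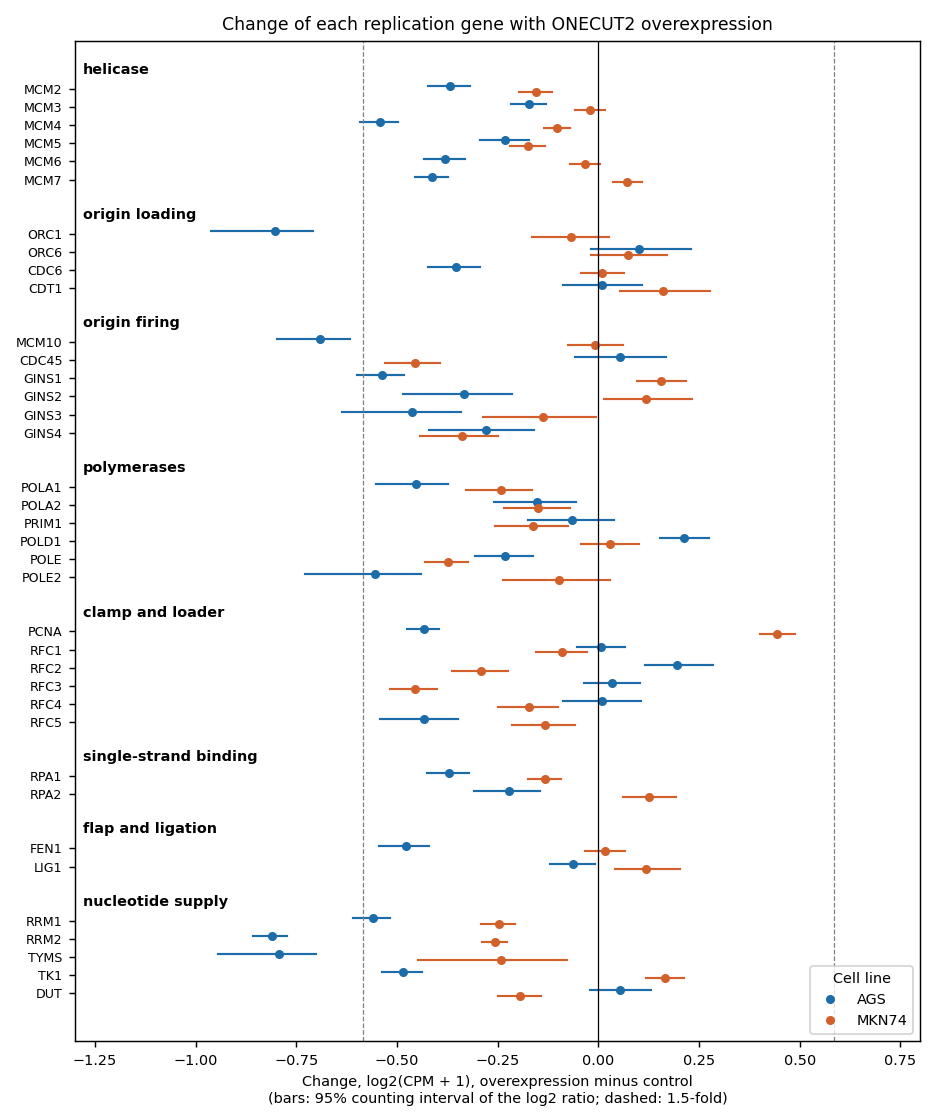
Change of log2(CPM + 1), overexpression minus control (x axis), for each of the 37 genes (y axis, grouped by role) in AGS (blue) and MKN74 (orange), with 95% counting intervals of the log2 ratio as bars and 1.5-fold as dashed lines. RRM2, ORC1, TYMS and MCM10 lie beyond 1.5-fold lower in AGS and PCNA is the gene farthest to the right in MKN74, at 0.44.

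Polymerase genes had changes between -0.56 and 0.21 in AGS and between -0.37 and 0.030 in MKN74. POLE2, a subunit of polymerase epsilon, was at 23.3 and 15.5 CPM in AGS and 21.7 and 20.2 CPM in MKN74. POLA1, the catalytic subunit of polymerase alpha, went from 56.4 to 40.9 CPM in AGS and from 58.9 to 49.7 CPM in MKN74. POLE, the catalytic subunit of polymerase epsilon, was at 80.4 and 68.3 CPM in AGS and at 148 and 114 CPM in MKN74. These genes were lower with overexpression in both lines, as were 31.0% of all genes averaging 1 CPM or more in both. The ratios for POLE were 0.849 (0.808 to 0.893) in AGS and 0.770 (0.742 to 0.799) in MKN74. For POLE2 the MKN74 ratio was 0.931 (0.848 to 1.02), an interval that includes 1. POLD1, the catalytic subunit of polymerase delta, was the member with the largest increase in AGS, from 99.1 to 115 CPM, a ratio of 1.16 (1.11 to 1.21), and was at 70.8 and 72.3 CPM in MKN74. POLA2 and the primase subunit PRIM1 had changes of -0.15 and -0.066 in AGS and -0.15 and -0.16 in MKN74.

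PCNA, the sliding clamp, went in opposite directions in the lines. It was at 284 CPM without and 210.4 CPM with overexpression in AGS, and at 173 and 236 CPM in MKN74. The order of the libraries therefore crossed, since the AGS control was the highest and the MKN74 control the lowest of the 4. The ratio was 0.740 (0.720 to 0.760) in AGS and 1.36 (1.32 to 1.40) in MKN74. The difference of the 2 changes, AGS minus MKN74, was -0.88 (counting interval -0.94 to -0.82 on the scale of log2 ratios), the largest of the list. Whether it exceeds the spread between cultures cannot be tested, since 4 libraries in 4 groups leave no residual degree of freedom.

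The clamp loader had the reverse order for some of its subunits. RFC2 went from 50.3 to 57.7 CPM in AGS and from 86.3 to 70.3 CPM in MKN74, with ratios of 1.15 (1.08 to 1.22) and 0.815 (0.777 to 0.855). RFC3 was at 81.1 and 83.0 CPM in AGS and at 129 and 94.0 CPM in MKN74. Its ratio was 1.02 (0.976 to 1.07) in AGS and 0.727 (0.698 to 0.757) in MKN74. All 5 loader subunits were below the control in MKN74, against 53.2% of all genes. Their changes were -0.091 for RFC1, -0.29 for RFC2, -0.46 for RFC3, -0.17 for RFC4 and -0.13 for RFC5. In AGS 1 of the 5 was below the control, RFC5 at -0.43, and this count was 4 after shifting to a common median. RFC1 and RFC4 had changes of 0.0064 and 0.0087 in AGS. WSB2, which overlaps RFC5, had changes of -0.60 and -0.30 in the lines, and its part in the RFC5 value was not tested.

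The single-strand binding subunits RPA1 and RPA2 had changes of -0.37 and -0.22 in AGS and -0.13 and 0.13 in MKN74. FEN1, the flap endonuclease that trims Okazaki fragments, went from 119 to 85.3 CPM in AGS, a ratio of 0.715 (0.685 to 0.747), and was at 144 and 146 CPM in MKN74. LIG1, the ligase that seals those fragments, was at 125 and 120.0 CPM in AGS and at 54.5 and 59.3 CPM in MKN74. Its AGS libraries were both above its MKN74 libraries, while the changes with overexpression were -0.063 and 0.12.

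Deoxynucleotide supply held 3 of the 5 largest decreases in AGS, those of RRM2, TYMS and RRM1. RRM2 (-0.81) and ORC1 (-0.80) were close, and ORC1 came first with a pseudocount of 0.1 (-0.83 against -0.82) and after quantile normalization (-0.86 against -0.68). RRM2, the regulatory subunit of ribonucleotide reductase, was at 292 CPM without and 166 CPM with overexpression in AGS, and at 413 and 345 CPM in MKN74. RRM1, the catalytic subunit, was at 231 and 156 CPM in AGS and at 221 and 186 CPM in MKN74. Both subunits were lower with overexpression in both lines, and the gap was wider in AGS. The ratios were 0.568 (0.552 to 0.585) for RRM2 and 0.677 (0.656 to 0.698) for RRM1 in AGS, and 0.836 (0.819 to 0.855) and 0.842 (0.817 to 0.867) in MKN74.

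TYMS, the thymidylate synthase, was at 35.9 and 20.3 CPM in AGS and at 11.99 and 9.99 CPM in MKN74, ratios of 0.565 (0.519 to 0.615) and 0.833 (0.733 to 0.948). It overlaps ENOSF1 and TYMSOS, and the sources used here do not give the strand setting of the counting. ENOSF1 went from 19.0 to 23.4 CPM and TYMSOS from 1.32 to 1.87 CPM in AGS. In MKN74 ENOSF1 went from 12.2 to 11.1 CPM and TYMSOS from 0.0718 to 0.153 CPM. Their part in the TYMS value was not tested. TK1, the cytosolic thymidine kinase, was at 187 and 133 CPM in AGS and at 156 and 175 CPM in MKN74, below its control in AGS and above it in MKN74. DUT, the dUTPase, had changes of 0.054 in AGS and -0.20 in MKN74.

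**Figure D3:**
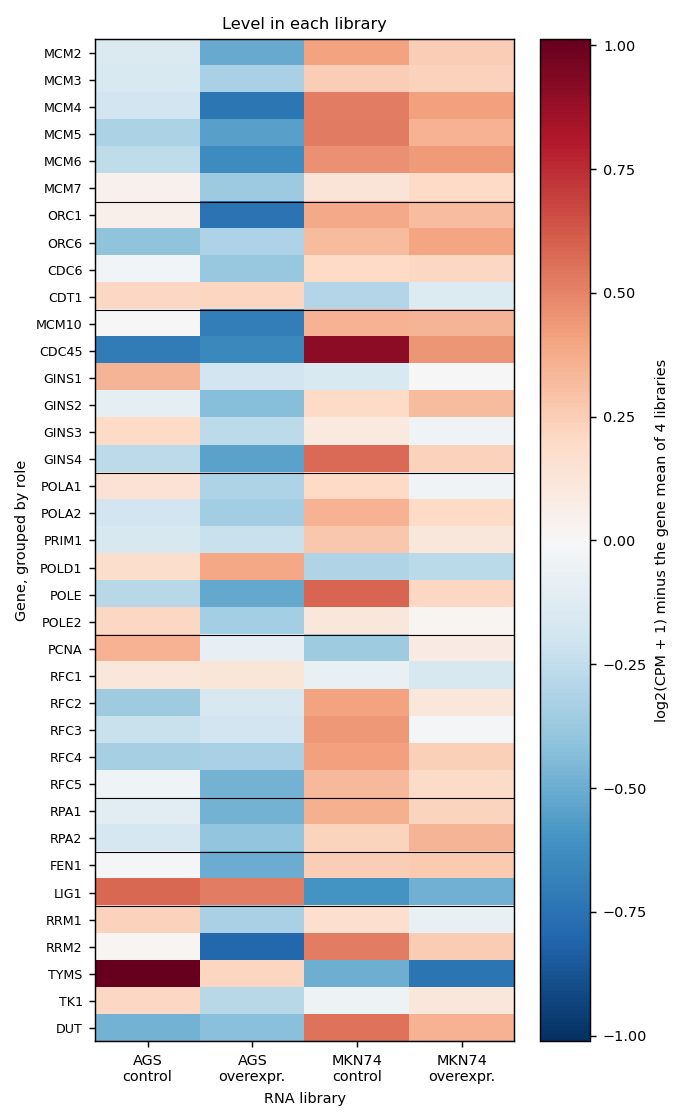
Level of each of the 37 genes (rows, grouped by role) in the 4 RNA libraries (columns), as log2(CPM + 1) minus the gene's mean over the libraries, from blue (low) to red (high). The AGS overexpression column is the lowest for RRM2, ORC1, MCM10 and MCM4, and PCNA is high in the AGS control, at 284 CPM, and low in the MKN74 control, at 173 CPM.

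Taking both lines side by side, 19 of the 37 genes were lower in both overexpression libraries (51.4%), where 31.0% of the 10766 genes averaging 1 CPM or more in both lines were. By 20% or more, 0 of the 37 were lower in both lines, against 2.27% of the 10766 genes. A further 9 genes were lower in AGS but higher in MKN74, 6 showed the opposite pattern, and 3 were higher in both. These patterns count changes of any size and were not counted over all genes. The counting interval of the ratio lay above 1 for 2 of the 37 in AGS and for 8 in MKN74. It lay below 1 for 27 in AGS and for 20 in MKN74. The change was lower in AGS than in MKN74 for 26 of the 37 genes (70.3%), against 51.7% of all genes, and the median difference was -0.24, against -0.018. After PCNA the widest differences between the changes were those of ORC1 (-0.73), GINS1 (-0.69), MCM10 (-0.69) and TK1 (-0.65), each with the lower change in AGS. Across the 37 genes Pearson's r of the 2 sets of changes was -0.11, given as a description over genes that share 4 libraries. Each line had its own control.

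Promoter letters were set beside the changes, again as a description. In AGS the 18 genes with an E2F motif in a window had a median change of -0.36 and the 15 without one of -0.37. The 20 genes with a CCAAT box had a median of -0.40 in AGS and the 13 without one of -0.063. In MKN74 the medians were -0.050 and -0.15. The AGS ranges overlapped, at -0.81 to 0.10 with the box and -0.79 to 0.21 without. Genes outside the list were not split this way. The 3 genes with an ONECUT motif, ORC1, GINS3 and ORC6, had changes of -0.80, -0.46 and 0.10 in AGS and -0.067, -0.14 and 0.074 in MKN74. TYMS, with an E2F motif and no CCAAT box in its window, had a change of -0.79 in AGS. RRM2, with CCAAT boxes and none of the E2F motifs searched, had -0.81. The part of these letters in the changes was not tested.

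A further 52 replication and nucleotide genes outside the list had, in AGS, a median change of -0.35. At least 1.5-fold lower were 7 (13.5%) and higher 3 (5.77%), against 5.73% and 11.2% of all genes. The largest decreases there were those of CLSPN, the checkpoint adaptor claspin (78.7 to 41.1 CPM), and TIPIN, a fork protection factor (25.5 to 13.1 CPM), with changes of -0.92 and -0.91. RRM2B, the p53-inducible small subunit of ribonucleotide reductase, was at 69.0 and 119 CPM in AGS (0.78), and POLD4, a small subunit of polymerase delta, at 30.8 and 49.1 CPM (0.66). The third higher one was TK2 (0.59). In MKN74 the 52 genes had a median of -0.094. At least 1.5-fold lower was 1 (1.92%), against 4.46% of all genes. It was CDC7, the kinase that triggers origin firing (105 to 55.6 CPM, -0.91). At least 1.5-fold higher were 2 (3.85%), against 6.61% of all genes. These were TK2, the mitochondrial thymidine kinase (4.78 to 8.14 CPM, 0.66), and SAMHD1, which breaks down deoxynucleotides and is induced by interferon. SAMHD1 was at 90.2 and 53.1 CPM in AGS and at 35.3 and 126 CPM in MKN74. It had a ratio of 0.589 (0.558 to 0.620) in AGS and 3.57 (3.37 to 3.78) in MKN74, and DSCC1, a subunit of an alternative clamp loader, had a change of -0.43 in MKN74.

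Regulators of the G1/S transition had a median change of 0.031 in AGS over 30 genes. At least 1.5-fold lower were 2 (6.67%) and higher 3 (10%), against 5.73% and 11.2% of all genes. E2F8, a repressor of the E2F family, and MYBL2 were the lower ones, at -0.69 and -0.68, and E2F1, named after its value was seen, had changes of 0.10 in AGS and -0.21 in MKN74. CDKN1A, a kinase inhibitor also named after its value was seen, was among the higher ones, at 234 and 389.6 CPM in AGS (0.73), and was at 30.5 and 45.6 CPM in MKN74 (0.57). CDKN1C, a cyclin-dependent kinase inhibitor, went from 1.56 to 7.08 CPM in AGS (1.66) and from 2.70 to 7.02 CPM in MKN74 (1.12). RBL2, a pocket protein that represses E2F targets, was at 0.74 and 0.10. In MKN74 the median over 32 regulators was -0.089. At least 1.5-fold lower were 2, CDKN2B (-0.85) and CDK6 (-0.68), and 2 were higher, each 6.25%. The shares of all genes there were 4.46% lower and 6.61% higher. CCND2, the cyclin D2 gene, was the other higher one besides CDKN1C, at 0.191 CPM in the MKN74 control, which rested on 8 reads, and 10.6 CPM in MKN74 overexpression.

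Mitosis genes had a median change of -0.55 in AGS over 24 genes. All 24 were below the control, against 50.3% of all genes. At least 1.5-fold lower were 10, against 5.73% of all genes, among them CENPE (-0.96) and KIF20A (-0.85). NUF2 (-0.15) and PRC1 (-0.19) were nearest to the control. In MKN74 their median was -0.13. At least 1.5-fold lower was 1 of 24, ANLN at -0.61, against 4.46% of all genes. BUB1B followed at -0.51, with TTK (0.080) and CENPA (0.040) at the upper end. The difference between the replication and mitosis lists was not tested.

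**Figure D4:**
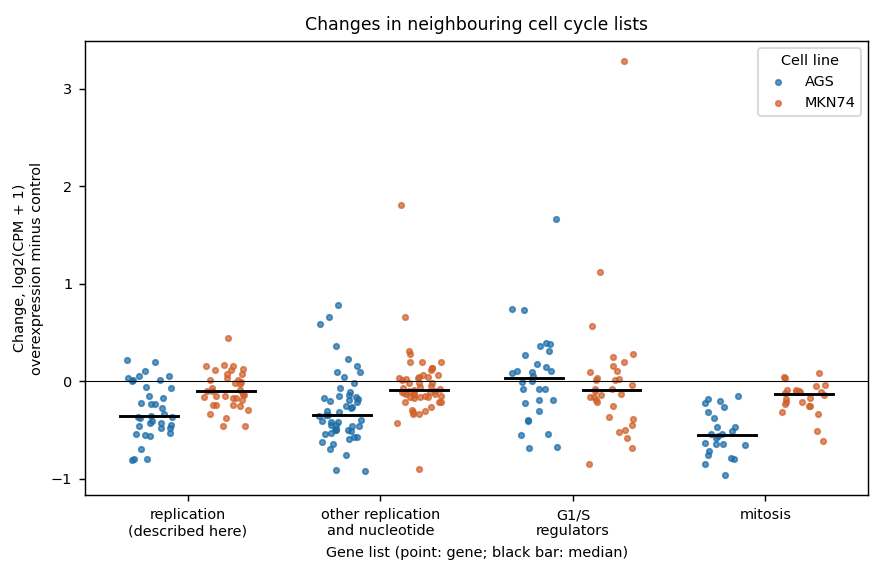
Change of log2(CPM + 1), overexpression minus control (y axis), for the genes of each list (x axis) in AGS (blue) and MKN74 (orange), with a point per gene and the median as a black bar. In AGS the medians are -0.35, -0.35, 0.031 and -0.55 for the replication, other replication, G1/S and mitosis lists, and the high points in MKN74 are SAMHD1 (1.81) and CCND2 (3.28).

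The lines were also compared with each other. Both MKN74 libraries lay above both AGS libraries for 25 of the 37 genes, against 39.1% of the 12340 genes averaging 1 CPM or more over the 4 libraries, and below them for 5 (CDT1, RFC1, POLD1, LIG1 and TYMS), against 37.5%. In limma, with the overexpression term in the fit and Benjamini-Hochberg adjustment over all genes, 12 of the 37 genes were higher in MKN74 (20.9% of all genes were) and 3 were higher in AGS (22.3% were). The 12 were MCM2, MCM4, MCM5, MCM6, CDC45, GINS4, ORC6, RFC4, POLE, RPA1, RRM2 and DUT. The 3 were LIG1, TYMS and POLD1. The fit takes the 2 libraries of a line as its samples. Its 1 residual degree of freedom is the difference between the changes of the 2 lines, moderated over genes. Nothing in the labels says that libraries came from separate cultures. These p-values therefore weigh a line difference against how unlike the 2 changes were, not against a spread between cultures.

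CDC45 had the largest of these differences towards MKN74, 1.35 (SE 0.20, limma adjusted p = 0.0095, higher in 2 of 2 MKN74 libraries), followed by MCM4 at 0.93 (SE 0.19, limma adjusted p = 0.022) and DUT at 0.90 (SE 0.17, limma adjusted p = 0.016). DUT was at 67.3 and 69.9 CPM in AGS and at 138 and 120.3 CPM in MKN74. Towards AGS, TYMS differed by -1.23 (SE 0.22, limma adjusted p = 0.015), LIG1 by -1.10 (SE 0.16, limma adjusted p = 0.0094) and POLD1 by -0.57 (SE 0.16, limma adjusted p = 0.046). The POLD1 call was lost under 3 alternatives, with an adjusted p of up to 0.072. RRM2 at 0.78 (SE 0.21, limma adjusted p = 0.042) was lost when overexpression was left out (0.10) and without a mean trend (0.058). The calls of MCM2, RFC4 and RPA1 were also lost under at least 1 alternative. CDT1 lay in both arms on the side of AGS, by -0.51 in the controls and -0.36 with overexpression, with a limma adjusted p of 0.10. PCNA, GINS1, TK1, GINS3, POLE2 and RRM1 were higher in the AGS control than in the MKN74 control but lower in AGS overexpression than in MKN74 overexpression.

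**Figure D5:**
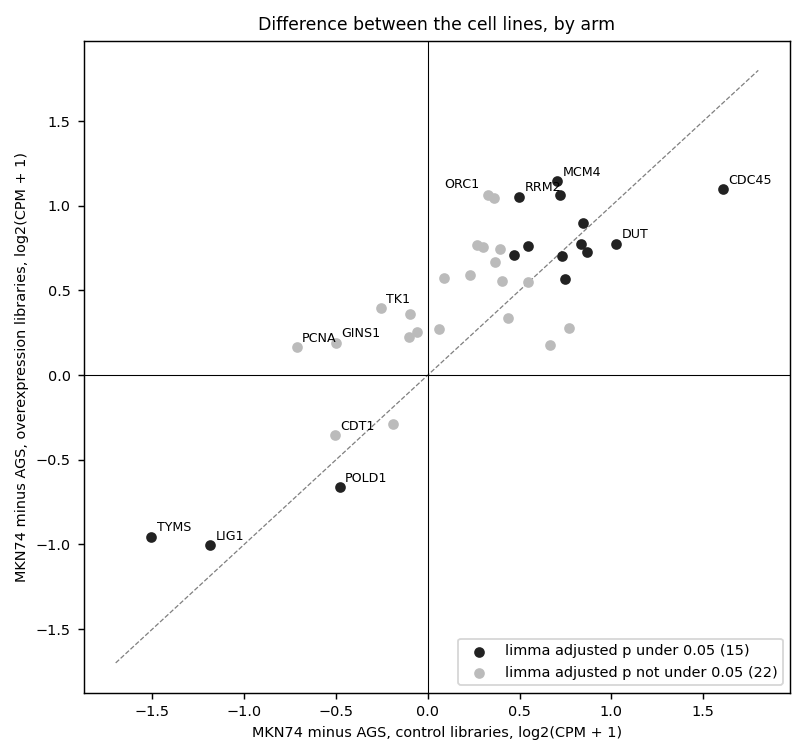
Difference between the lines, MKN74 minus AGS, in log2(CPM + 1) in the control libraries (x axis) and the overexpression libraries (y axis) for each of the 37 genes, black where the limma adjusted p for the line was under 0.05 (15 genes) and grey otherwise (22 genes), with equality as a dashed line. CDC45 lies farthest to the right, TYMS and LIG1 at the lower left, and PCNA, GINS1 and TK1 are among the points at the upper left, where the sign differs between the arms.

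An overexpression effect common to both lines was not detectable for any of the 37 genes. The error term of this effect is again the difference between the changes of the 2 lines. In limma with the line as a term 0 of the 37 had an adjusted p under 0.05, as had 0 of all 12340 genes (0%), and voom on the recovered reads called 0 as well. An unadjusted p under 0.05 was found for 0 of the 37 and for 566 of all genes in limma, and for 960 of all genes in voom. The common change, the mean of the changes of the 2 lines, was negative for 32 of the 37 genes and for 6331 of all 12340. Its median was -0.20 beside -0.0090 over all genes. Lower in both lines were 19 of the 37. RRM2 had -0.53 (SE 0.21) and TYMS -0.52 (SE 0.22), both with an adjusted p of 0.80 in limma, and both were lower in 2 of 2 lines.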

How the data were processed

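RNA libraries of AGS and MKN74 cells were grouped by title. The 8 chromatin immunoprecipitation samples were not analysed here. The authors deposited 1 table of log2 values with 13109 rows. By the values these are log2(CPM + 1), since 2 to the value minus 1 gave whole multiples of a fixed step for 100% of values (tolerance 0.001 of a read), so that reads were recovered. The recovered reads made up 83.1% to 88.1% of the library size that the step implies. 18 rows named by a date (0.218% to 0.239% of reads) were left out. Build hg19 and the tools STAR 2.5.1, edgeR 3.12.1, HOMER 4.9.1, CASAVA 1.7 and Bowtie2 2.1.0 appear in the submitters' processing notes without their roles. The sources used here give no read counter, annotation or strand setting, so overlapping genes and near-identical copies are uncertain.

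Changes were differences between the log2 values the authors deposited, for genes averaging 1 CPM or more in the line, counted at 1.5-fold and at 20% lower or 25% higher. Ratios have exact (Clopper-Pearson, conditional binomial) intervals, and differences of changes have Wald intervals from Poisson counts. Line and common overexpression effects were fitted with limma 3.58.1 (R 4.3.3) with empirical Bayes moderation and a mean trend, Benjamini-Hochberg adjusted at 0.05. The line pairs the libraries. The limma and interval steps were tested on simulated data. Named are, per line, the 5 largest decreases and 3 largest increases among members, the 5 widest differences between lines' changes, the 4 largest line differences each way, MCM2 to MCM7, PCNA and ONECUT2. Of each other list the 2 largest changes each way per line are named, and E2F1 and CDKN1A were chosen after their values were seen. Members without such a rank are given briefly. Overlapping genes and promoter windows came from RefSeq (GRCh38.p14), used for hg19 data for neighbourhood and letters only. Members and lists were chosen with earlier results of these data known. Alternatives were pseudocounts of 0.1 and 2, no filter or 5 CPM, a common median, quantile normalization, totals of the listed rows, other folds, moderation without trend or robust, voom, and the line or overexpression left out. Computation used scipy 1.17.1, numpy 2.4.6, matplotlib 3.10.9, pandas 2.3.3 and Python 3.11.15.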

Additional observations from a re-analysis of the deposited data

Results flagged for a closer look

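PCNA was the member whose change was at least 20% lower in 1 line and at least 25% higher in the other, going in opposite directions, -0.43 in AGS and 0.44 in MKN74, each from 1 library against 1 control. The difference was not tested, since no residual degree of freedom is left, and it was -0.82 after quantile normalization. Under that normalization the AGS change was -0.29, which is less than 20% lower.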

How the results depend on the processing

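The count of 4 members at least 1.5-fold lower in AGS was 20 when counted from 20% lower, 0 at 2-fold and 7 with a common median. The MKN74 counts of 0 were 4 lower by at least 20% and 1 higher by at least 25%. Under the alternatives of pseudocount, filter and scaling the AGS count of 20 ranged from 15 to 21. The MKN74 count of 4 lower by at least 20% was 2 with quantile normalization and with totals of the listed rows. The members' median stayed negative under the alternatives of pseudocount, filter and scaling, between -0.40 and -0.29 in AGS and between -0.13 and -0.048 in MKN74. Line calls ranged from 8 to 18 members higher in MKN74 and from 2 to 3 higher in AGS over 12 fits, and 10 of the 15 were called in all of them. MCM2, RFC4, POLD1, RPA1 and RRM2 were lost without a mean trend, with adjusted p from 0.053 to 0.072 in that limma fit. With no replicate block, that is with the line left out, 0 members had a common effect, as in the main fit. Of the single-gene changes and differences 317 stayed within their counting interval and 54 moved beyond it. The filters leave these values as they are, so the entries under them were bound to stay. All 54 moves came with the common median, quantile normalization or totals of the listed rows. The change had the other sign under at least 1 scaling for 5 members in AGS (CDT1, LIG1, RFC1, RFC3 and RFC4) and 6 in MKN74 (CDC6, FEN1, MCM3, MCM4, MCM6 and MCM10), each at most 0.10 in size as reported. No change of at least 1.5-fold and 0 of the named differences between lines turned sign. Groups hold 1 library each, so no library could be left out within a group.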
